A study of Mus musculus with 24 samples.

Results

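Methionine restriction (MR) with oxidised casein as the protein of the diet was compared with an unrestricted casein diet in mouse liver by RNA sequencing. The comparison takes in 12 of the series' 24 libraries, 6 casein MR and 6 casein control, chosen by their labels. All came from livers of 4-month-old male mice of the inbred strain C57BL6/J, with no transgene named in the labels. The casein control diet held 0.86% methionine, and the casein MR diet held 0.17% methionine with casein that had been oxidised. The control casein was not labelled as oxidised, so the loss of methionine and the oxidation of the protein cannot be told apart in this comparison. The other 12 libraries, elemental control and elemental MR, came from mice of the same sex, strain and age that were given free amino acids at the same 2 methionine levels, and they serve below as the comparison with MR on another protein source. Libraries are named as in their labels, C_C for casein control and C_MR for casein MR with a number each. It is not stated that each number is a mouse of its own, and p-values therefore measure only how far these samples spread.

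Methionine starts every protein, and as S-adenosylmethionine it is the methyl donor of most methylation reactions, many of which run in hepatocytes. When an amino acid is short, uncharged transfer RNA activates the kinase GCN2, translation slows, and the transcription factor ATF4 raises genes of amino acid synthesis and uptake. Methionine is also the source of the sulphur of cysteine and so of glutathione, whose enzymes are regulated by the transcription factor NRF2. In rodents MR is known for lower growth hormone signalling through IGF1 and for shifts of hepatic lipid metabolism. The male and female patterns of mouse liver genes are set largely by the rhythm of growth hormone pulses.

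One casein library stood apart before any gene was tested. In C_MR_3438, the summed level of 42 skeletal muscle markers was 3756 CPM (the read count scaled to the size of the library, with TMM factors), against 77.8 to 142 in the controls and 95.7 to 209 in the other 5 casein MR libraries, with C_MR_3425 the highest of these 5. Car3, a carbonic anhydrase made by both muscle and hepatocytes, was left out of that sum. For this reason each test was run with all 24 libraries and again without C_MR_3438, and genes are written below to have risen, fallen or changed only where the adjusted p was under 0.05 in both fits with 1 sign. Levels are CPM per library, given as the median with the lowest and highest library in square brackets; casein MR ranges cover the 5 libraries other than C_MR_3438, whose value follows. CPM are not divided by gene length, so levels are compared between libraries and not between genes. Fold changes are log2 values ± SE, and adjusted p-values are those of edgeR's quasi-likelihood test, both from the fit without C_MR_3438 unless another is named. In whole tissue, fewer cells of a type and less RNA per cell cannot be told apart.

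Casein MR changed a large share of the genes measured, in both directions. With all libraries 3137 of 13441 genes passed (23.3%), 1427 higher and 1710 lower with MR. Without C_MR_3438, 2894 of 13544 passed (21.4%), 1287 higher and 1607 lower. In both fits 1228 genes rose (9.14% of the genes tested in both) and 1535 fell (11.4%). At least 2-fold changes were seen in 254 of the genes that rose and 370 of those that fell, and at least 4-fold changes in 85 and 128. Among the genes that changed, 1434 (617 up, 817 down) had all 12 libraries apart, the 6 of one diet above the 6 of the other, and 10.996% of all genes tested were apart in this way. Leaving out C_MR_3438 moved the fold change of a changed gene by a median of 0.0206 on the log2 scale and by over 0.5 in 15 genes. Calls made with all libraries only (374 genes) and without C_MR_3438 only (131 genes) are described with the muscle genes below.

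**Figure D1:**
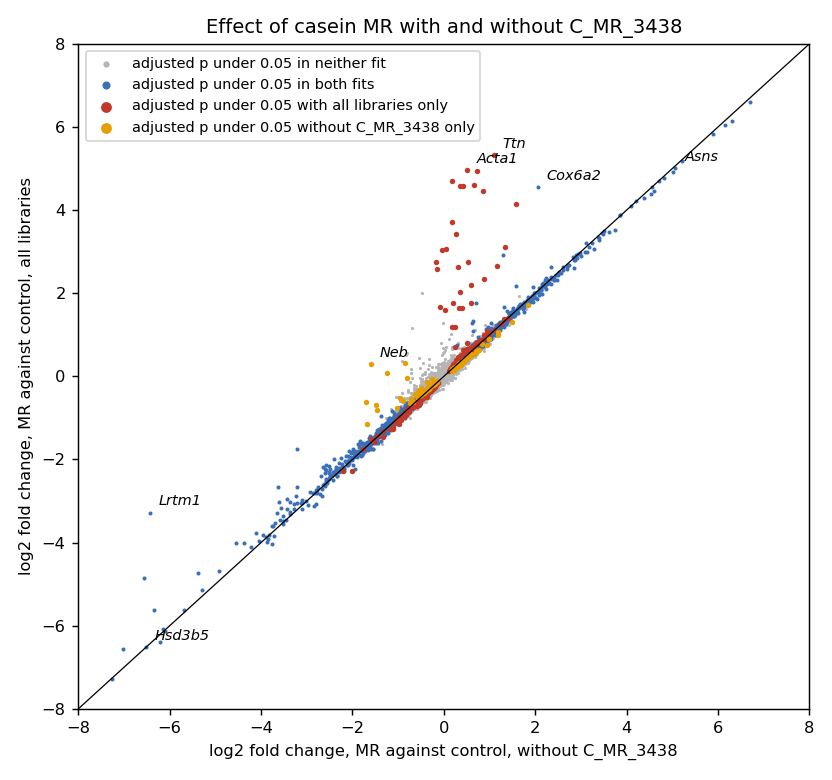
Each point is 1 of 13441 genes, with the log2 fold change of casein MR against casein control without C_MR_3438 on the x axis and with all libraries on the y axis, coloured by the fits in which the adjusted p was under 0.05, and the line marks equal values. Genes called in both fits lie along the line, apart from a few such as Lrtm1 (-6.43 without and -3.28 with C_MR_3438), and muscle genes such as Ttn and Acta1 rise above it only on the y axis.

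The libraries also differed in make-up. The 20 most abundant genes took 36.8 ± 0.626% of control reads and 30.7 ± 0.512% of MR reads (SD over 6 libraries each; two-sided exact permutation p = 0.00216, adjusted p = 0.00361, the smallest that 6 against 6 libraries allow). Totals were 13.5 to 17.9 M counted reads in the controls and 15.3 to 19.9 M in MR (exact permutation p = 0.19). Defining hepatocyte markers were present in all 12 libraries, and their summed level was 133800.0 ± 8774 CPM in control and 82779 ± 3309 with MR (SD over 6 libraries each; exact permutation p = 0.00216, adjusted p = 0.00361). Of the 16 markers tested 13 fell and 0 rose, with a median log2 fold change of -0.54. Their sum is carried by secreted proteins such as albumin and Serpina1c (-1.29 ± 0.15). Hnf4a, a hepatocyte transcription factor, was among the 3 that did not change. It was at 384 [274 to 419] CPM in control and 362 [310.4 to 440.4] in casein MR, with a log2 fold change of 0.04 ± 0.11 (adjusted p = 0.863). On a scale on which the mean of the controls is 0 and that of the 5 MR libraries is 1, the median position over 777 changed genes was -0.129 to 0.0897 in the controls, 0.949 to 1.05 in the 5 MR libraries and 0.901 in C_MR_3438. These libraries set the scale and chose the genes, so values near 0 and 1 were built in. C_MR_3438 did not set the scale, but the genes also had to pass in the fit that included it.

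**Figure D2:**
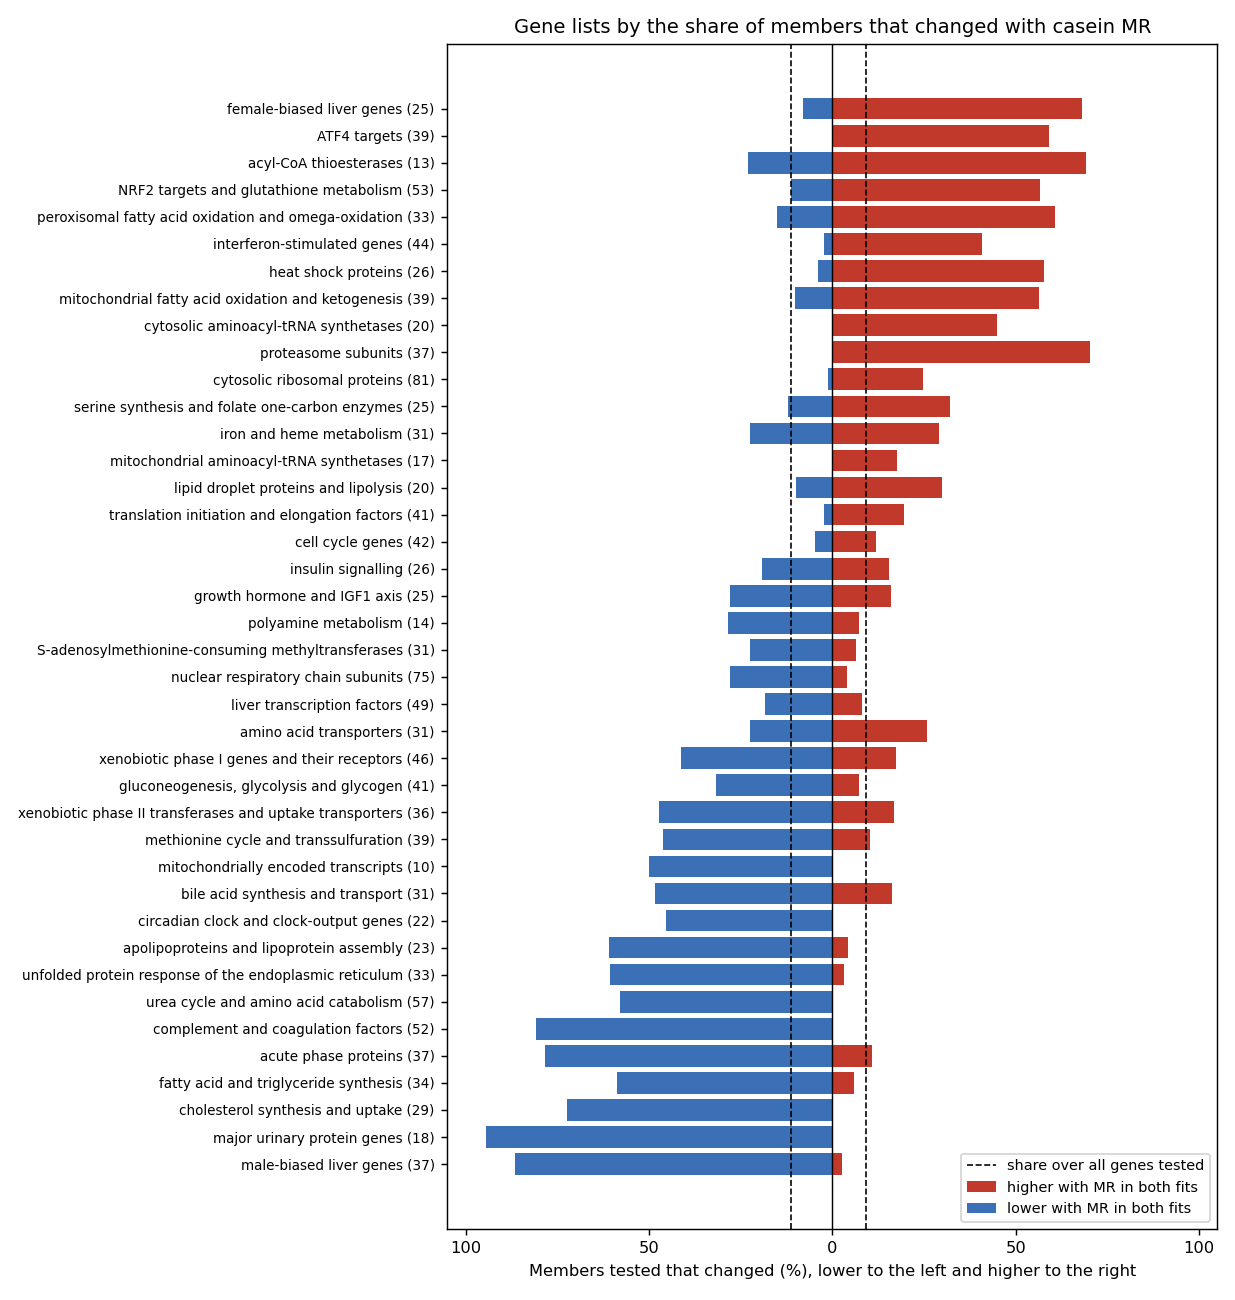
Bars give, for each of 40 gene lists (number of members tested in brackets), the percentage of members that rose (right) and fell (left) with casein MR in both fits, in the order of the list's median log2 fold change, and dashed lines mark the shares over all genes tested, 9.14% and 11.4%. Female-biased genes, ATF4 targets and acyl-CoA thioesterases stand at the top, and male-biased genes, major urinary proteins and cholesterol synthesis at the bottom.

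Targets of ATF4 and enzymes of amino acid synthesis were among the genes with the largest rises. Asns, which makes asparagine, was at 1.81 [0.763 to 3.56] CPM in control and 64.00 [60.1 to 72.3] in casein MR, and at 50.01 in C_MR_3438. The fold change of Asns was 5.07 ± 0.24 (adjusted p = 2.22e-13), and every MR library lay far above every control. Psat1, an enzyme of serine synthesis, was at 1.04 [0 to 1.62] CPM in control and 37.98 [30.3 to 39.7] in casein MR, with 33.1 in C_MR_3438 and a log2 fold change of 5.21 ± 0.28 (adjusted p = 8.72e-13). Phgdh, which starts serine synthesis, went from at most 0.235 CPM in any control to 2.07 [1.47 to 3.16] in casein MR (4.53 ± 0.53, adjusted p = 4.07e-07), and Psph, which ends it, rose less (1.53 ± 0.18). The groups did not overlap for any of these 4 genes.

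Of 39 ATF4 targets tested, 23 rose and 0 fell, with a median log2 fold change of 0.75, against a median of 0.01 over all genes. Vldlr, a lipoprotein receptor, was at 1.97 [0.873 to 2.10] CPM in control and 23.6 [20.7 to 30.2] in casein MR (3.87 ± 0.19, adjusted p = 2.61e-13). Tcf24, which encodes a basic helix-loop-helix protein, was at 0.360 [0.125 to 0.871] CPM and 12.6 [11.3 to 13.02] CPM (4.83 ± 0.34). The cystine transporter Slc7a11 rose from 0.237 [0.117 to 0.324] CPM to 2.14 [1.13 to 3.31] (3.28 ± 0.73), but C_MR_3438 held only 0.410 CPM, just above the highest control. Pck2, the mitochondrial form of the gluconeogenic enzyme PEPCK (2.16 ± 0.20), Nupr1, a stress-induced chromatin protein (1.73 ± 0.30), Atf5 (1.02 ± 0.12), the translation inhibitor Eif4ebp1 (0.76 ± 0.08) and the pseudokinase Trib3 (0.86 ± 0.24) rose as well, and in each the libraries of the 2 diets lay apart. Atf4 itself had 0.20 ± 0.10 and did not pass (adjusted p = 0.172). Ddit3, which encodes the stress factor CHOP, was at 12.2 [7.61 to 19.4] CPM in control and 12.3 [11.4 to 13.7] in casein MR (0.02 ± 0.17, adjusted p = 0.948), and Chac1, which degrades glutathione, had 0.60 ± 0.37 (adjusted p = 0.287).

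Promoters of the ATF4 targets were read for the letters TGATGNAA, the core of the CARE element that ATF4 dimers bind, on both strands from 250 bases before to 50 bases after the start site (RefSeq, GRCm38.p6). Of 18 targets that rose and have a window, 7 held the letters (38.9%), as did 4 of 13 other members tested (30.8%), 2.84% of the tested genes with a window and 3.97% of 32851 windows in all. A match describes letters and not a bound site. The stretches of 120 bases before the start site are shown for 4 of the genes above, since these are promoters of genes that rose together; they read 5′ to 3′ on the gene's strand, with the matched letters in capitals. Slc7a11 holds 2 matches, and the matches of Nupr1 and Pck2 and the second of Slc7a11 read in reverse.
Asns, chr6:7693210-7693329, minus strand: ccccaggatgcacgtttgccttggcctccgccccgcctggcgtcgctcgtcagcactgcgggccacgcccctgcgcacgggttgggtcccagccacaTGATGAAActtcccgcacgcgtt
Slc7a11, chr3:50443614-50443733, minus strand: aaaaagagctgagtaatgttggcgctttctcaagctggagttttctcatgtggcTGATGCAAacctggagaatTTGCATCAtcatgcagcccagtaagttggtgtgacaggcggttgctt
Nupr1, chr7:126625471-126625590, minus strand: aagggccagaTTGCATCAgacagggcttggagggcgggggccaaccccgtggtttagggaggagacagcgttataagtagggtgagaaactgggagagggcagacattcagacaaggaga
Pck2, chr14:55540146-55540265, plus strand: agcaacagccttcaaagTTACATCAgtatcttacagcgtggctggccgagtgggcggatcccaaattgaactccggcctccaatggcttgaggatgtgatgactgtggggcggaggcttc

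Secreted factors that are often raised together with ATF4 targets varied more between libraries. The hormone Fgf21 was at 1.73 [0.567 to 4.98] CPM in control and 5.98 [1.81 to 14.4] in casein MR, and at 2.002 in C_MR_3438. Its groups overlapped, and its log2 fold change of 1.80 ± 0.70 did not pass (adjusted p = 0.0672), although it did in a fit of the 12 casein libraries alone (adjusted p = 0.0152), without C_C_3436 (adjusted p = 0.0327) or without C_MR_3431 (adjusted p = 0.04). Gdf15, a stress-induced hormone of the TGF-beta family, had 0.52 ± 0.32 (adjusted p = 0.289).

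Genes of serine synthesis and folate metabolism changed in both directions. Folate enzymes pass on the 1-carbon units that come from serine. Of 25 genes of serine synthesis and folate metabolism, 8 rose and 3 fell (median 0.11). The mitochondrial enzymes Aldh1l2 (4.57 ± 0.44; 0.0750 [0 to 0.435] CPM in control, 3.49 [2.93 to 5.27] in casein MR), Mthfd2 (2.47 ± 0.28) and Mthfd1l (1.99 ± 0.35) rose. The cytosolic enzymes Aldh1l1 (-0.91 ± 0.10) and Shmt1 (-0.57 ± 0.08) fell, Aldh1l1 from 254 [229.9 to 324] CPM to 148 [118 to 155]. Shmt2, the mitochondrial counterpart of Shmt1, was at 113 [107 to 125] and 115 [104 to 124] CPM (-0.01 ± 0.06, adjusted p = 0.928), so not all mitochondrial members changed.

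Amino acid transporters split by direction. Of 31 tested, 8 rose and 7 fell (median -0.10). Slc3a2, the heavy chain that pairs with the light chains of several transporters, rose from 60.1 [54.1 to 64.9] CPM to 119.9 [110.4 to 168] (1.14 ± 0.10, adjusted p = 3.26e-09), with 76.95 in C_MR_3438. Its partners Slc7a7 (1.16 ± 0.16) and Slc7a5 (1.20 ± 0.40) and the glycine transporter Slc6a9 (0.75 ± 0.12) rose too, Slc7a5 with a value of 0.72 without C_MR_3412, the highest library (adjusted p = 0.212). The call of Slc7a5 was also lost without C_C_3413, C_C_3421, C_C_3436 or C_C_3437, with adjusted p of 0.0543 to 0.0705. Slc38a3, a glutamine transporter, fell from 498 [467 to 681] CPM to 306 [294 to 343] (-0.74 ± 0.09), and Slc38a4 fell by a smaller step (-0.46 ± 0.07). Of 20 cytosolic aminoacyl-tRNA synthetases, which charge transfer RNAs, 9 rose and 0 fell (median 0.25). Gars, for glycine, led with 39.8 [37.2 to 40.4] CPM in control and 70.7 [66.8 to 75.97] in casein MR (0.86 ± 0.07, adjusted p = 7.96e-10), and Vars, Iars and Nars rose by 0.55, 0.51 and 0.39. Mars, which charges methionyl-tRNA, rose by 0.38 ± 0.10 (adjusted p = 0.00664), with groups that overlapped. Of 17 mitochondrial synthetases 3 rose and 0 fell, namely Ears2 (0.38), Vars2 (0.31) and Lars2 (0.29, adjusted p = 0.0328; the call was lost, with adjusted p of 0.0517 to 0.0939, without C_C_3407, C_C_3421, C_C_3429, C_C_3436, C_C_3437, C_MR_3419, C_MR_3425 or C_MR_3431).

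Genes that spend or regenerate methyl groups fell more often than they rose. Of 39 genes of the methionine cycle and transsulfuration, 4 rose and 18 fell (median -0.21). Bhmt, which remethylates homocysteine with betaine, fell from 861 [705 to 1195] CPM to 90.1 [62.8 to 100.5] in casein MR and 128 in C_MR_3438. Bhmt changed by -3.37 ± 0.21 (adjusted p = 1.03e-11), and the highest MR library, C_MR_3438, lay below every control. Its neighbour in the pathway Dmgdh, which oxidises dimethylglycine, fell from 285 [245 to 331] to 127 [126 to 131] CPM (-1.15 ± 0.08), and Bhmt2 (-0.64 ± 0.09) and Sardh (-0.42 ± 0.10) fell less. Choline dehydrogenase (Chdh), which makes betaine, rose (0.54 ± 0.07).

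Methyltransferases followed in part. Of 31 that use S-adenosylmethionine, 2 rose and 7 fell (29% in all), where 9.14% of all genes tested rose and 11.4% fell. Nnmt, which methylates nicotinamide, fell from 31.8 [15.6 to 61.5] CPM to 3.04 [2.42 to 3.85] (-3.37 ± 0.33, adjusted p = 1.90e-08), with 8.05 in C_MR_3438. Gnmt, the abundant glycine methyltransferase of liver, was at 1968 [1685 to 2496] CPM in control and 1020.0 [801 to 1199] in casein MR (-1.02 ± 0.12). Gamt, which makes creatine (-1.002 ± 0.09), Tpmt (-1.39 ± 0.13) and Hnmt (-1.11 ± 0.14) fell. The synthetase of S-adenosylmethionine in liver, Mat1a, had 0.28 ± 0.12 (adjusted p = 0.107, and 0.0346 to 0.0484 without C_MR_3412, C_C_3407 or C_C_3413). The transsulfuration enzymes Cbs (0.14 ± 0.11, adjusted p = 0.427) and Cth (0.35 ± 0.21, adjusted p = 0.275) did not pass either. Further along the sulphur pathway, Csad, an enzyme of taurine synthesis, rose from 261 [169 to 475] CPM to 1603 [1494 to 1764] (2.46 ± 0.27, adjusted p = 1.80e-07), with all 12 libraries apart, while Cdo1, which oxidises cysteine, fell (-0.32 ± 0.08). Of 14 polyamine genes 1 rose, Amd1 (0.60 ± 0.13), which makes decarboxylated S-adenosylmethionine, and 4 fell, among them Paox (-0.55 ± 0.11), Agmat (-0.40 ± 0.08) and Azin1 (-0.30 ± 0.08).

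Many enzymes that break down amino acids fell, and 0 of those tested rose. The urea cycle and catabolic list held 57 genes, of which 33 fell and 0 rose (median -0.40). In the urea cycle, Ass1 fell from 513 [413 to 787] CPM to 306 [218 to 339] (-0.99 ± 0.15, adjusted p = 1.35e-05), and Cps1 (-0.81 ± 0.16), Asl (-0.68 ± 0.11), Otc (-0.55 ± 0.08) and Arg1 (-0.39 ± 0.14, adjusted p = 0.0402) fell as well. The call of Arg1 was lost without C_C_3413, C_C_3421, C_C_3437, C_MR_3412, C_MR_3419, C_MR_3425 or C_MR_3431, with adjusted p of 0.0557 to 0.117. Oat, which degrades ornithine, fell the most of the genes named here, from 396 [338 to 762] CPM to 165 [138 to 188] (-1.50 ± 0.16). Prodh for proline (-1.15 ± 0.15), Haao (-0.95 ± 0.08) and Ido2 (-1.07 ± 0.13) for tryptophan, Agxt2 (-0.82 ± 0.09) and Ftcd for histidine (-0.94 ± 0.12) fell, with no overlap between the diets. Tdo2, the hepatic enzyme that opens tryptophan breakdown, was at 1296 [1003 to 1642] and 1237 [923 to 1562] CPM (-0.01 ± 0.13, adjusted p = 0.963), and Glud1, glutamate dehydrogenase, had -0.01 ± 0.08 (adjusted p = 0.963).

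Many NRF2 targets and glutathione enzymes rose, with conjugating and reducing enzymes ahead. Of 53 tested, 30 rose and 6 fell (median 0.47). Cbr1, a carbonyl reductase, went from 106 [99.9 to 122] CPM to 688 [508 to 787] (2.62 ± 0.14, adjusted p = 4.87e-13) and stood at 497 in C_MR_3438. Gstm1, a glutathione S-transferase, was at 1166 [988 to 1336] CPM in control and 3836 [3717 to 5057] in casein MR (1.84 ± 0.11), which put it among the 6 genes that gained most CPM. Gsta2 (3.47 ± 0.22), Gstm4 (1.83 ± 0.11), Gsta4 (1.54 ± 0.14), the epoxide hydrolase Ephx1 (1.78 ± 0.12), the quinone reductase Nqo1 (2.09 ± 0.24), the exporter Abcc4 (2.51 ± 0.24) and the sulfiredoxin Srxn1 (1.20 ± 0.15) rose as well. The 3 genes of glutathione synthesis rose, Gclc by 0.86 ± 0.11, Gclm by 0.45 ± 0.08 and Gss by 0.69 ± 0.09, and so did glutathione reductase, Gsr (0.78 ± 0.12). The antioxidant enzymes Sod1 (0.06 ± 0.05), Cat (-0.06 ± 0.07) and Gpx1 (0.11 ± 0.11) and heme oxygenase Hmox1 (0.28 ± 0.21) did not pass (adjusted p = 0.504, 0.58, 0.558 and 0.407). Nfe2l2, which encodes NRF2, had -0.15 ± 0.08 (adjusted p = 0.219). G6pdx, a source of NADPH (-0.88 ± 0.21), and the microsomal transferase Mgst1 (-0.46 ± 0.08) were among the 6 that fell. Glutathione S-transferase genes of 1 class are close copies, so how reads were shared between them is uncertain.

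The letters TGACNNNGC, the core of the antioxidant response element that NRF2 binds, were present in the promoter windows of 7 of 24 members that rose (29.2%), of 8 of 23 other members (34.8%), of 16.8% of tested genes and of 12.4% of all windows. The share was not higher among the members that rose than among the others. The 120 bases before both listed start sites of Abcc4 and before that of Ugdh (UDP-glucose dehydrogenase, 1.44 ± 0.15) are shown for their matches, in capitals as above and from the same source; the second line of Abcc4 and the line of Ugdh carry the match in reverse.
Abcc4, chr14:118676932-118677051, minus strand: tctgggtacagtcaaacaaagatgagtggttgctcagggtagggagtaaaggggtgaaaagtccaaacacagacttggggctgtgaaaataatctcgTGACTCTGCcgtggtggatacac
Abcc4, chr14:118706220-118706339, minus strand: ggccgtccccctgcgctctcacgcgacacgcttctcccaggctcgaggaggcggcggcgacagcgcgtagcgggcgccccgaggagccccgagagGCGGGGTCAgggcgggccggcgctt
Ugdh, chr5:65435843-65435962, minus strand: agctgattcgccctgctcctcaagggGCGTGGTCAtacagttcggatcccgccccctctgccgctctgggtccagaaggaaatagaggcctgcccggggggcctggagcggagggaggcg

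**Figure D3:**
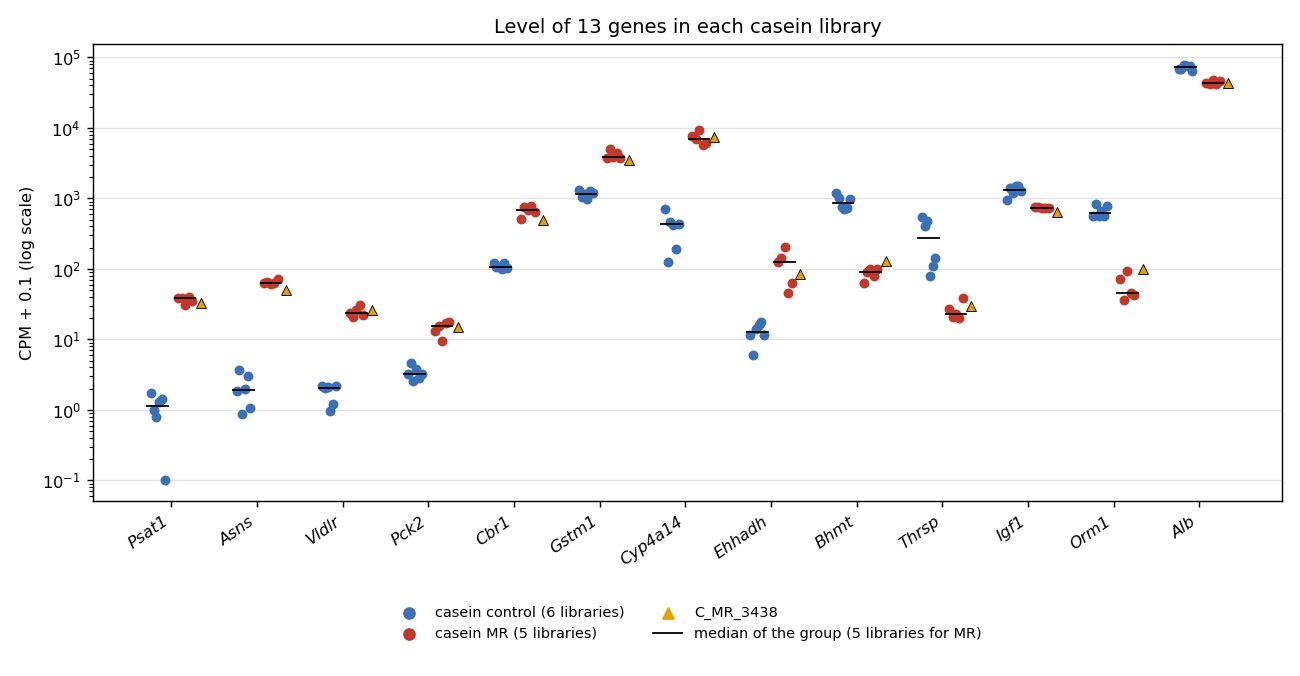
Points give the CPM (plus 0.1, log scale) of 13 genes in each casein library, with casein control in blue, 5 casein MR libraries in red, C_MR_3438 as a triangle and black bars at the medians. For each of these genes the 6 MR libraries lie on 1 side of the 6 controls, for example Asns at 50.01 CPM or more with MR and at 3.56 or less in control.

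Most genes of fatty acid oxidation rose with casein MR, and most genes of the lipogenic list fell. The list of peroxisomal and omega-oxidation genes had 20 of 33 up and 5 down (median 0.43), mitochondrial oxidation and ketogenesis 22 of 39 up and 4 down (median 0.28), and acyl-CoA thioesterases 9 of 13 up and 3 down (median 0.56; 0 down without C_MR_3419 or C_MR_3431). Cyp4a14, an omega-hydroxylase of fatty acids, went from 432 [126 to 699.5] CPM to 7013 [5813 to 9377], with 7523 in C_MR_3438 (4.21 ± 0.39, adjusted p = 8.27e-09), the largest gain in CPM of any gene that changed. Its relatives Cyp4a10 (2.89 ± 0.32) and Cyp4a31 (4.09 ± 0.31) rose too, but these genes are near-identical copies and their separate values are uncertain. Ehhadh, the peroxisomal bifunctional enzyme, rose from 12.8 [5.91 to 17.7] CPM to 125 [45.8 to 206] (3.18 ± 0.38). The MR libraries were widely spread for this gene, but all lay above the controls. The thioesterases Acot1 (2.87 ± 0.27), Acot2 (2.98 ± 0.21), Acot3 (2.69 ± 0.36) and Acot4 (1.29 ± 0.15), the thiolase Acaa1b (1.04 ± 0.13), the isomerase Ech1 (0.77 ± 0.07) and Pex11a, which multiplies peroxisomes (1.16 ± 0.16), rose, while its paralogue Pex11g fell (-0.81 ± 0.08). In mitochondria the acyl-CoA dehydrogenases Acadm (0.88 ± 0.11), Acadl (0.61 ± 0.06) and Acadvl (0.49 ± 0.05), the isomerase Eci2 (0.93 ± 0.11), carnitine acetyltransferase (Crat, 1.45 ± 0.20) and the uncoupling protein Ucp2 (1.67 ± 0.16) rose. Cpt1a, the gate of mitochondrial fatty acid entry, was at 211 [166 to 265] and 182 [164 to 226] CPM (-0.18 ± 0.12, adjusted p = 0.343). Ppara, whose product drives many of these genes, fell (-0.60 ± 0.17, adjusted p = 0.0129), with overlapping groups. The letters GGTCANAGG, the core of the direct repeat bound by that factor with its partner RXR, were read on both strands and were in 0 of 14 peroxisomal, 0 of 18 mitochondrial and 0 of 7 thioesterase promoter windows of members that rose, against 1.84% of tested genes and 1.72% of all windows.

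The lipogenic list, with fatty acid as well as triglyceride synthesis, had 20 of 34 genes down and 2 up (median -0.59). Thrsp, a regulator of lipogenesis, fell from 272 [80.3 to 552] CPM to 22.8 [20.2 to 38.3] (-3.52 ± 0.42, adjusted p = 4.44e-07). Scd1, which makes oleate, was at 3779 [1635 to 6856] CPM in control and 1055 [633 to 1272] in casein MR (-2.005 ± 0.34). Fasn (-1.61 ± 0.32), Acly (-1.65 ± 0.24), Acss2 (-1.79 ± 0.24), the glycolytic kinase Pklr (-1.61 ± 0.16), Agpat2 (-0.66 ± 0.08), Dgat2 (-0.61 ± 0.08) and the regulator Srebf1 (-0.78 ± 0.18) fell. The controls varied widely for several of these genes, for Fasn at 398 [171 to 805] CPM, and for Fasn and Srebf1 the groups overlapped. The 2 members that rose were Mogat1, which makes diacylglycerol (1.78 ± 0.38), and malic enzyme Me1 (0.55 ± 0.19, adjusted p = 0.0371; the call was lost, with adjusted p of 0.0585 to 0.103, without C_C_3413, C_C_3429, C_C_3436, C_C_3437, C_MR_3412, C_MR_3419 or C_MR_3425).

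Cholesterol genes fell without exception among those that passed. Of 29 genes of synthesis and uptake, 21 fell and 0 rose (median -0.73; 12 at adjusted p under 0.01). By smallest p the leading members were Ebp (-0.57 ± 0.06), Scap (-0.55 ± 0.07), Sc5d (-0.85 ± 0.13) and Insig2 (-0.70 ± 0.13). Fdps, which makes farnesyl diphosphate, fell by more (-1.47 ± 0.31), with 91.8 [42.9 to 213] CPM in control and 40.5 [23.3 to 55.8] in casein MR, and the groups overlapped. Of 23 apolipoprotein and assembly genes, 14 fell and 1 rose (median -0.34). Apoa4 fell from 197 [159.8 to 1315] CPM to 37.2 [22.5 to 53.2] (-3.51 ± 0.49), with 1 control, C_C_3407, far above the rest. Apoa1, the main protein of high density lipoprotein, fell from 11085 [8215 to 11740.0] CPM to 5291 [4743 to 7133] (-0.92 ± 0.11), Apoc3 by more (-1.13 ± 0.09), and Apoh by less (-0.42 ± 0.05). The member that rose was the lipase Lpl, which has little expression in adult hepatocytes and was at 38.5 [29.2 to 40.2] CPM in control, 141 [95.8 to 188] in casein MR and 264, the highest value, in C_MR_3438 (1.94 ± 0.19, adjusted p = 2.48e-08). Muscle also makes Lpl. Of 20 lipid droplet and lipolysis genes 6 rose and 2 fell, led by the droplet enzyme Hsd17b11 (263 [253 to 344] to 666 [604 to 911] CPM; 1.37 ± 0.09), Fitm2 (0.56 ± 0.11) and Pnpla2 (0.46 ± 0.12) among those that rose and Cideb among those that fell (-0.58 ± 0.06). The droplet coat Plin2 had -0.18 ± 0.18 (adjusted p = 0.541).

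The male pattern of liver expression fell and part of the female pattern rose, in male mice. Of 37 male-biased genes tested, 32 fell and 1 rose, with a median log2 fold change of -2.41. Of 25 female-biased genes, 17 rose and 2 fell (median 2.69). That median is the value of Acot3, a thioesterase named above with the lipid genes. Lists share members, so this count is not separate from those of the lipid lists. Hsd3b5, a steroid dehydrogenase of male liver, fell from 232 [62.9 to 284] CPM to 0.850 [0.569 to 5.70], and stood at 2.18 in C_MR_3438 (-6.52 ± 0.77, adjusted p = 4.72e-07). Selenbp2 (248 [46.2 to 412] to 2.29 [1.70 to 4.99] CPM; -6.15 ± 0.58), the secreted serpin Serpina12 (179 [94.7 to 263] to 5.15 [2.43 to 5.90] CPM; -5.29 ± 0.32), Dct (-7.02 ± 0.56), C4a (-3.01 ± 0.20), the adhesion protein Ncam2 (-3.86 ± 0.32) and the complement components C6 (-2.87 ± 0.24) and C9 (-3.29 ± 0.28) fell with all libraries apart. Dct was at 0.101 [0.0472 to 0.122] CPM in casein MR, a few reads per library, so the size of its fall is uncertain. Of 18 major urinary protein genes, which encode pheromone carriers, 17 fell (median -2.33). Mup3 fell from 12760.0 [5548 to 13390.0] CPM to 1397 [1001 to 3062] (-2.58 ± 0.32), Mup21 from 345 [144 to 377] to 25.7 [14.3 to 54.8] (-3.21 ± 0.38) and Mup12 from 170.2 [33.2 to 282] to 5.62 [4.70 to 18.5] (-4.04 ± 0.53), and Mup2 fell by 3.10 on the log2 scale. These genes are almost the same in sequence, and reads cannot be assigned to single copies with confidence. On the female side, Cyp2b9 went from 1.88 [1.12 to 6.53] CPM to 137 [93.2 to 218] (5.90 ± 0.51, adjusted p = 2.86e-09) and Cyp2a4 from 4.23 [0.375 to 7.71] to 271 [79.9 to 454] (6.16 ± 0.69), the largest rise among genes with an average of at least 1 log2 CPM and an established symbol. Cyp2a22 (4.59 ± 0.49) rose in the same way, and members of the Cyp2a and Cyp2b families share the uncertainty of copies.

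The growth hormone axis itself changed at several points. The receptor Ghr fell from 487 [400.4 to 498] CPM to 201 [180.1 to 231] (-1.19 ± 0.08, adjusted p = 9.22e-11). Igf1, the growth factor it induces, fell from 1328 [963 to 1517] to 738 [726 to 766] CPM, with 651 in C_MR_3438 (-0.81 ± 0.09, adjusted p = 1.39e-07), and no library overlapped for either gene. The cytokine receptor Lifr fell as well (-1.19 ± 0.20), while the leptin receptor Lepr rose (1.87 [0.825 to 4.52] to 15.6 [4.74 to 18.1] CPM; 2.52 ± 0.40). In all, 4 of 25 genes of the axis rose (1 in a fit of the 12 casein libraries alone) and 7 fell. Stat5b, the transcription factor that relays growth hormone, had 0.01 ± 0.12 (adjusted p = 0.951).

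Libraries of one diet were not alike for the genes that growth hormone pulses set. Cux2, a female-specific repressor of male genes, was at 0.452 [0.225 to 0.810] CPM in control and 4.49 [0.353 to 4.86] in casein MR (2.85 ± 0.51), but C_MR_3412 (0.353) and C_MR_3438 (0.410) lay within the controls. Bcl6, a male-biased repressor of female genes, was at 60.98 [16.3 to 115] CPM and 6.46 [3.79 to 24.8] CPM (-2.61 ± 0.68), with 29.7 in C_MR_3438, and its groups overlapped. Socs2, an inhibitor induced by growth hormone, was at 28.4 CPM in C_MR_3412, 17.99 in C_MR_3433 and 29.03 in C_MR_3438 against 200.4, 147 and 160.2 in the other 3, with controls at 36.2 [12.5 to 64.8]. Its log2 fold change of 1.49 ± 0.54 passed without C_MR_3438 (adjusted p = 0.0498) and not with all libraries (adjusted p = 0.0879). By the SD of log2 CPM over the 5 libraries, the most variable genes of casein MR also included Mup11 (73.04 [23.6 to 596] CPM), Serpina1e (187 [44.4 to 805]), Cyp4a12b (15.7 [3.36 to 66.3]), Cish (18.2 [2.46 to 40.00]) and Xlr3a (5.48 [1.16 to 23.6]). Over all 2097 changed genes with an average of at least 3 log2 CPM, the median SD of log2 CPM was 0.156 in control and 0.133 in the 5 MR libraries.

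**Figure D4:**
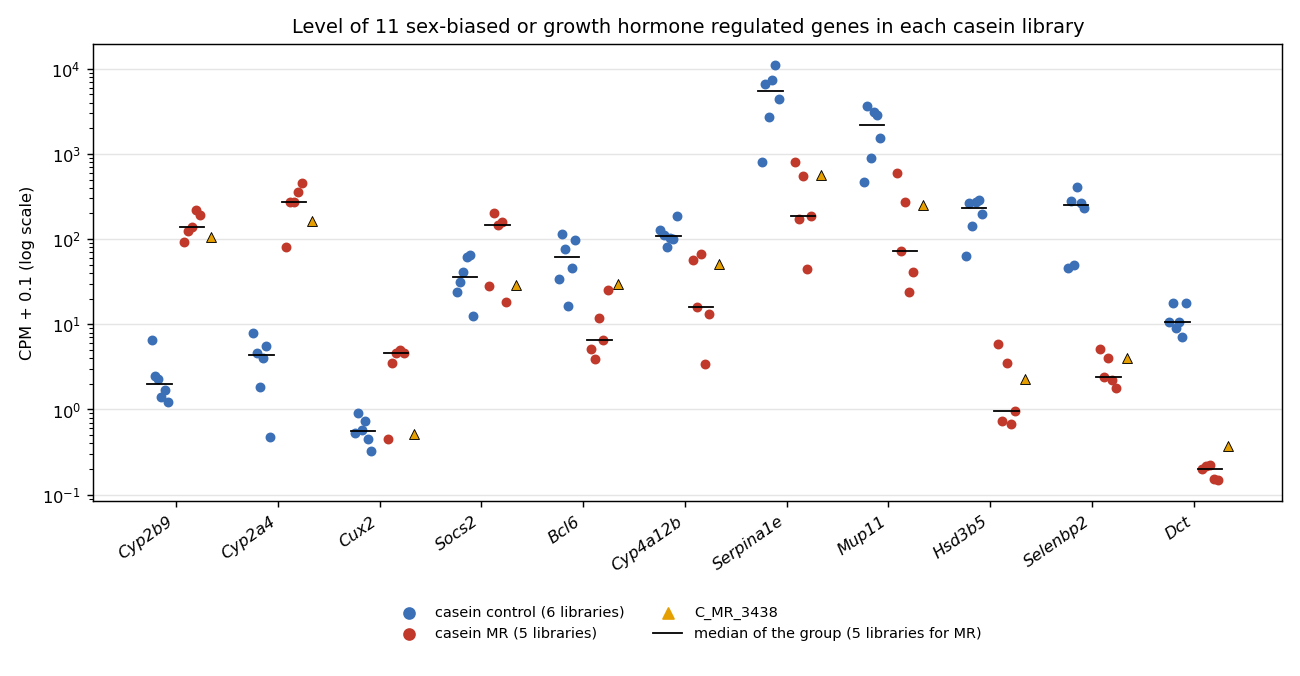
Points give the CPM (plus 0.1, log scale) of 11 sex-biased or growth hormone regulated genes in each casein library, with the same colours and bars as the plot of 13 genes. Cyp2b9, Cyp2a4, Hsd3b5, Selenbp2 and Dct keep the diets apart, whereas Cux2, Socs2, Bcl6, Serpina1e and Mup11 overlap, with MR libraries such as C_MR_3412 at 0.353 CPM of Cux2.

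Most genes of the plasma protein lists fell. Alb fell from 72465 [64100.0 to 78680.0] CPM to 42840.0 [41810.0 to 47390.0] (-0.70 ± 0.06, adjusted p = 4.81e-09), the largest loss in CPM of any gene, followed by the mitochondrial transcripts mt-Nd4 and mt-Cytb, by Mup3 and by the serpin Serpina3k (-2.30 ± 0.23). Of 52 complement and coagulation factors, 42 fell and 0 rose (median -0.51). C4bp (404 [371 to 464] to 193 [166 to 221] CPM; -1.08 ± 0.07), C1s1 (-0.92 ± 0.06), Cpb2 (-0.81 ± 0.06), C8b (-1.78 ± 0.18) and the clotting factor F11 (42.95 [36.4 to 53.1] to 11.6 [8.09 to 13.8] CPM; -1.93 ± 0.15) fell, as did prothrombin, F2 (-0.40 ± 0.07), and the fibrinogen chain Fga (-0.60 ± 0.07). The central complement component C3 was at 2494 [1691 to 2853] and 2794 [2535 to 2934] CPM (0.19 ± 0.10, adjusted p = 0.219). The 37 acute phase genes split into 29 that fell and 4 that rose (median -0.56). Orm1, which encodes orosomucoid, fell from 618 [554 to 824] CPM to 44.8 [36.2 to 92.5] (-3.52 ± 0.24, adjusted p = 5.17e-11), and Serpina1d (-1.24 ± 0.10), Serpina1b (-0.88 ± 0.07) and Saa1 (-2.10 ± 0.32) fell. The members that rose included Lbp (0.73 ± 0.13), which binds bacterial lipopolysaccharide, and Il1rn (1.28 ± 0.23), an interleukin 1 antagonist. Serpina1 and Serpina3 genes are recent copies, and their single values carry the same doubt.

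Most listed genes of the endoplasmic reticulum response fell, and most listed heat shock proteins, of the cytosol and the mitochondria, rose. In the reticulum, 20 of 33 genes of the unfolded protein response fell and 1 rose (median -0.36). Ppib (156 [135 to 183] to 79.4 [71.8 to 103] CPM; -0.90 ± 0.08), the disulphide isomerases P4hb (-0.54 ± 0.06) and Pdia6 (-0.76 ± 0.11), Os9 (-0.50 ± 0.07) and the chaperone Hspa5 (-0.50 ± 0.14, adjusted p = 0.0091) fell, and Ero1l, an oxidase, rose (0.41 ± 0.11). Of 26 heat shock proteins, 15 rose and 1 fell (median 0.29). Hspb1 rose from 12.7 [8.10 to 14.6] CPM to 47.4 [27.4 to 64.7] (1.98 ± 0.19, adjusted p = 1.12e-08), and the mitochondrial chaperones Hspa9 (0.63 ± 0.06) and Hspe1 (0.41 ± 0.07) and the cytosolic Hsp90aa1 (0.78 ± 0.13) rose.

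Most proteasome subunits rose by small steps, and fewer ribosomal proteins and translation factors did. Of 37 proteasome subunits 26 rose and 0 fell (median 0.25), led by the activator Psme1 (0.51 ± 0.06), Psmd4 (181 [163 to 204] to 266 [244 to 286] CPM; 0.55 ± 0.07), Psma7 (0.42 ± 0.06) and Psmc6 (0.39 ± 0.06), and the immunoproteasome subunit Psmb8 had 0.07 ± 0.12 (adjusted p = 0.742). Of 81 cytosolic ribosomal proteins 20 rose and 1, Rpl27a, fell (-0.25 ± 0.09; adjusted p of 0.0506 to 0.123 without C_C_3413, C_C_3429, C_MR_3412, C_MR_3419 or C_MR_3425), with a median of 0.16. Rpl36a (0.43 ± 0.09), Rpl12 (0.51 ± 0.11), Rps3 (0.27 ± 0.07) and Rps19 (0.27 ± 0.07) had the smallest p of those that rose. The ribosomal count was not stable: 8 members rose without C_MR_3433, 9 without C_C_3437, 11 without C_C_3407 or C_MR_3431, and 12 without C_MR_3419. Of 41 translation factors 8 rose and 1 fell (22% in all, median 0.06), where 9.14% of all genes tested rose and 11.4% fell. The 8 that rose included Eif4g2 (0.37 ± 0.06), Eif2s2 (0.33 ± 0.06), Eef1g (0.25 ± 0.06) and Eef1b2 (0.28 ± 0.07).

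Part of the respiratory chain transcripts fell. Mitochondrially encoded genes took 14.3 ± 0.815% of control reads and 12.2 ± 0.623% of MR reads (SD over 6 libraries each; exact permutation p = 0.00216, adjusted p = 0.00361). Of 10 tested as genes, 5 fell and 0 rose, namely mt-Nd4 (72585 [59760.0 to 81430.0] to 41110.0 [37360.0 to 49020.0] CPM; -0.71 ± 0.10), mt-Cytb (-0.71 ± 0.09), mt-Nd2 (-0.55 ± 0.08), mt-Nd5 (-0.47 ± 0.07) and mt-Co1 (adjusted p = 0.0528 without C_MR_3419), while mt-Nd1 had -0.12 ± 0.07 (adjusted p = 0.272). Of 75 nuclear subunits 21 fell and 3 rose (median -0.09; 11 fell in a fit of the 12 casein libraries alone), with Ndufa13 (-0.46 ± 0.06), Cox5b (-0.34 ± 0.05), Uqcrh (-0.30 ± 0.05) and Atp5k (-0.32 ± 0.06) leading the falls.

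Immune and rhythmic genes gave smaller and less stable counts. Of 44 interferon-stimulated genes 18 rose and 1, Oasl1 (-0.96 ± 0.19), fell (median 0.42; 11 rose without C_C_3421). Zbp1, a sensor of nucleic acids (6.20 [3.93 to 7.24] to 11.7 [10.5 to 16.1] CPM; 1.06 ± 0.17), Usp18 (0.97 ± 0.16), Ifi44 (1.15 ± 0.19) and the GTPase Igtp (1.21 ± 0.23) led. Of 22 clock genes 10 fell and 0 rose (median -0.30; 6 fell without C_C_3413). Bhlhe40 (-1.15 ± 0.20), Per2 (10.8 [7.05 to 15.3] to 1.61 [1.24 to 5.62] CPM; -1.99 ± 0.37), Hlf (-0.52 ± 0.11) and Dbp (-2.07 ± 0.59) fell, and the activator Arntl had 0.98 ± 0.45 (adjusted p = 0.128). The hour of sampling is not given in the sources used here. Of 42 cell cycle genes 5 rose (2 without C_MR_3425) and 2 fell, near the background. Gadd45b, a growth arrest gene, rose from 0.564 [0.249 to 1.11] CPM to 4.08 [3.62 to 11.6] (3.40 ± 0.42, adjusted p = 9.18e-07), Ccnd3 rose (0.41 ± 0.08) and Cdk6 (-0.44 ± 0.10) and Rrm2 (-0.86 ± 0.22) fell. The proliferation marker Mki67 had -0.24 ± 0.51 (adjusted p = 0.798).

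Markers of both ends of the liver lobule fell. Of 22 pericentral markers, which are high around the central vein, 14 fell and 1 rose (median -0.53). Of 23 periportal markers 15 fell and 2 rose (median -0.52). Gulo, the enzyme of ascorbate synthesis, fell from 886 [585 to 968] CPM to 305 [279.8 to 318] (-1.47 ± 0.11), and Lect2 (-1.24 ± 0.09) and glutamine synthetase Glul (-0.64 ± 0.08) fell on the pericentral side. On the periportal side Pigr, the receptor that carries IgA into bile, fell from 709.5 [551 to 794] CPM to 197 [156 to 211] (-1.87 ± 0.12, adjusted p = 2.56e-11), with Cyp2f2 (-1.45 ± 0.14) and Aldh1b1 (-1.33 ± 0.18). Of 46 phase I genes of drug metabolism and their receptors 8 rose and 19 fell, with Cyp39a1, an oxysterol hydroxylase, up (5.50 [3.60 to 9.27] to 35.8 [28.6 to 56.02] CPM; 2.73 ± 0.19), Por, which passes electrons to P450 enzymes, up (0.94 ± 0.21) and Cyp4f14 (-1.34 ± 0.10) and Cyp2j6 (-1.12 ± 0.10) down. Of 36 phase II transferases and uptake transporters 6 rose and 17 fell. The organic anion transporter Slc22a7 fell from 13.2 [5.60 to 20.97] CPM to 0.807 [0.610 to 1.21] (-3.89 ± 0.31), Nat8 (-2.36 ± 0.20) and the sulphotransferase Sult1b1 (-1.62 ± 0.13) fell, and Ugt2b35 rose (0.99 ± 0.09). The Slc22 family members Slc22a26 (3.74 ± 0.65) and Slc22a27 (3.62 ± 0.44) were among the 12 largest rises, and their close copies make these values uncertain.

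Bile acid, glucose and iron genes changed in part. Of 31 bile acid genes 5 rose, led by the exporter Abcc4 named above, and 15 fell (median -0.29). The uptake transporter Slc10a1 (-0.75 ± 0.08), Slco2b1 (-0.80 ± 0.09), Cyp2c70, which makes muricholic acids (338 [169 to 418] to 103 [64.3 to 125] CPM; -1.73 ± 0.20), Cyp7b1 (-1.56 ± 0.30) and the ileal-type transporter Slc10a2 (15.9 [9.67 to 24.8] to 1.09 [0.574 to 2.42] CPM; -3.83 ± 0.28) fell. Cyp7a1, the rate-limiting enzyme of bile acid synthesis, was at 85.95 [45.5 to 99.4] CPM in control and 74.4 [32.4 to 106] in casein MR (-0.26 ± 0.41, adjusted p = 0.725). Of 41 genes of gluconeogenesis, glycolysis and glycogen 3 rose and 13 fell (8 without C_C_3421). Pygl, glycogen phosphorylase (-0.81 ± 0.08), fructokinase Khk (-0.86 ± 0.11) and the glucose transporter Slc2a2 (-0.67 ± 0.13) fell, while Pck1 was at 1414 [688 to 1625] and 1294 [526 to 1876] CPM (0.01 ± 0.30, adjusted p = 0.99) and Fbp1 was at 564 [474 to 630.2] and 582 [426 to 625]. Of 26 insulin signalling genes 4 rose and 5 fell (34.6% in all, median 0.05), where 9.14% of all genes tested rose and 11.4% fell. The 5 that fell included the adaptor Grb14 (-0.58 ± 0.08), Sesn3 (-0.71 ± 0.11) and Foxo3 (-0.61 ± 0.14). Of 31 iron and heme genes 9 rose and 7 fell. Blvrb, biliverdin reductase B, rose from 108 [88.6 to 115] CPM to 283 [248 to 293] (1.39 ± 0.08, adjusted p = 8.72e-13), ferritin light chain Ftl1 (0.64 ± 0.10) and the exporter Slc40a1 (0.71 ± 0.10) rose, and transferrin, Trf, fell (-0.50 ± 0.07). Of 49 liver transcription factors 4 rose and 9 fell (26.5% in all, median -0.09), with Cebpa (-0.50 ± 0.07) among those that fell.

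Among gene classes, 17 of 33 small nucleolar RNAs rose and 0 fell (51.5%), against 21.4% of 12080 protein-coding genes that changed in either direction. Of 213 antisense genes 10 rose and 35 fell, in all 21.1%, near the share of protein-coding genes. The use of strand in counting is not stated, and reads from these genes and from the genes they overlap, or from the host genes of small nucleolar RNAs, cannot be told apart.

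Few markers of macrophages, endothelium, stellate cells and lymphocytes changed, while cholangiocyte and adipocyte markers changed in a larger share of their short lists. Of 22 Kupffer cell and macrophage markers Slc40a1 rose and Cx3cr1 (-1.35 ± 0.37) fell, of 20 endothelial markers 1, Stab2 (-0.23 ± 0.07), fell, of 27 stellate cell and matrix markers 0 changed (5 fell without C_MR_3431 and 3 without C_C_3436), and of 16 lymphocyte and neutrophil markers 1, Cd4 (-2.81 ± 0.47), fell. Summed Kupffer markers were at 711 to 1123 CPM in control and 952 to 1452 in the 5 MR libraries, with C_MR_3431 the highest, and the defining stellate, endothelial and lymphocyte sums overlapped as well. Of 10 cholangiocyte markers 4 fell and 1 rose, with Tff3 (-6.35 ± 0.85; at most 0.115 CPM in casein MR), Sox9 (-0.92 ± 0.18) and Spp1 (-0.76 ± 0.22) down, and their sum was 86.9 to 138 CPM in control and 67.9 to 95.1 in the 5 MR libraries. Of 17 antigen presentation genes 1 rose and 4 fell, namely H2-Q10 (-0.55 ± 0.08), H2-K1 (-0.41 ± 0.07), H2-Q7 (-0.61 ± 0.12) and B2m (-0.27 ± 0.07). Of 9 erythroid markers 1 fell, Alas2 (-1.42 ± 0.22), and the sum was 7380 CPM in C_MR_3431, 3843 in C_MR_3425 and 1331 to 2040 in the other 4 casein MR libraries, against 2029 to 3708 in the controls. Of 7 adipocyte markers 2 rose, Lpl and Pnpla2, and 2 fell, Car3 (5856 [4610.0 to 7026] to 2615 [2037 to 3371] CPM; -1.14 ± 0.16) and Cfd (-3.62 ± 0.82), the serum protease adipsin, which was at 3.27 [1.37 to 6.90] CPM in control, 0.258 [0.115 to 0.504] in casein MR and 2.002 in C_MR_3438. Of 4 markers of exocrine pancreas and gut, 1 rose, Lgals4 (0.40 ± 0.13), and 1 fell, Cela1 (-1.63 ± 0.52). The calls of 3 of these markers were lost on leaving out single libraries, for Stab2 C_C_3437 or C_MR_3419 (adjusted p = 0.0714 and 0.0893), for Cela1 C_MR_3419 or C_MR_3433 (adjusted p = 0.0592 and 0.0526) and for Lgals4 C_C_3407, C_C_3413, C_C_3436, C_MR_3419 or C_MR_3433 (adjusted p of 0.0542 to 0.0707). The part of these cells in the results above was not tested.

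Muscle genes led the calls that were made with all libraries only. The 6 with the smallest p among those 374 genes were Myom1, Ttn, Ckm, Acta1, Tnnt3 and Myl1, all of the contractile apparatus or energy supply of muscle. Acta1, skeletal actin, was at 644 CPM in C_MR_3438, 1.61 [1.03 to 19.8] in the other MR libraries and 2.65 [1.86 to 9.63] in control, so its log2 fold change was 4.97 (adjusted p = 0.00234) with C_MR_3438 and 0.51 ± 0.56 (adjusted p = 0.588) without, and -1.14 (adjusted p = 0.043) once C_MR_3425 was left out as well. Ttn (264 CPM in C_MR_3438, at most 3.56 in a control), Ckm (114 against 1.62) and Myl1 (127 against 1.86) did the same. The opposite held for Neb, nebulin, which is also transcribed in liver. It was at 23.8 [13.7 to 38.7] CPM in control, 7.75 [6.36 to 10.7] in the 5 MR libraries and 137 in C_MR_3438, and its log2 fold change was -1.60 ± 0.24 without C_MR_3438 (adjusted p = 1.18e-05) and 0.29 with it (adjusted p = 0.772). Neb, Pwwp3b, Mgp, Dnaja4, Pik3cb and Snrpn had the smallest p of the 131 genes called only without C_MR_3438. Of 21 skeletal muscle markers tested in both fits, 3 rose (0 by DESeq2's Wald test) and 1 fell, and the median moved from 3.06 with all libraries to 0.41 without C_MR_3438. The 3 that rose were Tpm1 (0.63 ± 0.11), Tpm2 (1.30 ± 0.22) and Cox6a2 (2.05 ± 0.38), whose levels in the 5 MR libraries, 50.1 [48.9 to 52.4], 14.3 [11.6 to 22.2] and 3.72 [1.36 to 6.90] CPM, were above control medians of 31.3, 5.95 and 0.917 CPM. Chrna4, a nicotinic receptor subunit, was among the 12 largest falls (6.78 [1.20 to 18.6] to 0.413 [0.236 to 0.855] CPM; -4.22 ± 0.72). Lrtm1, a leucine-rich repeat gene, fell in both fits but from 13.5 [7.05 to 22.7] CPM to 0.142 [0.0504 to 0.287] in the 5 libraries while C_MR_3438 stayed at 7.10, the largest shift between the fits.

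The effect of MR on casein was compared with that on elemental amino acids through the difference of the log2 fold changes, casein minus elemental. These MR comparisons share no library. The elemental control library E_C_3430 held a summed 2937 CPM of exocrine pancreas and gut markers, against 110 to 229 in the other libraries of the series. It stayed in both fits, and no difference was tested without it. The difference passed in both fits for 272 genes (2.02%), 93 above and 179 below 0, and 258 of these also changed with casein MR itself, in each case with the difference in the direction of the casein effect. The casein effect is part of that difference, and these 258 were also chosen by it. A shared direction was therefore favoured in advance and does not show that casein MR acts more strongly in general. The protein sources differ in more than oxidation, and the parts of each were not tested.

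Among genes that rose, Asns rose by 5.07 ± 0.24 on casein and 3.23 ± 0.20 on elemental amino acids, a difference of 1.84 ± 0.31 (adjusted p = 0.0012), and differences also passed for Vldlr (1.37 ± 0.26) and Tcf24 (2.08 ± 0.46), the only 3 of the 39 ATF4 targets. Psat1 (1.23 ± 0.41, adjusted p = 0.147) did not pass. Peg3, an imprinted zinc finger gene, rose from 3.42 [2.40 to 4.87] CPM to 22.8 [21.7 to 26.2] on casein (2.73 ± 0.18) and had 0.26 ± 0.18 on elemental amino acids (difference 2.47 ± 0.26, adjusted p = 4.10e-06). Krt23, a keratin (2.55 ± 0.42), Adgrg2, an adhesion receptor (2.38 ± 0.34), Lpl (1.88 ± 0.26), Hsd17b11 (1.15 ± 0.13), the retinol saturase Retsat (1.28 ± 0.18) and Cbr1 (1.25 ± 0.18) also rose on casein with a difference above 0. On elemental amino acids Cbr1 had 1.36 ± 0.13 (adjusted p = 3.93e-08), whereas Adgrg2 had -0.12 ± 0.25 (adjusted p = 0.829). In the fatty acid oxidation lists the difference was above 0 in 8 of 33 peroxisomal and 7 of 39 mitochondrial members, such as Ehhadh (2.47 ± 0.51), Acot2 (1.69 ± 0.28), Cyp4a31 (2.34 ± 0.40) and Acadl (0.36 ± 0.08). The sex-biased P450 genes Cyp2a4 (1.20 ± 0.94) and Cyp2b9 (0.78 ± 0.74) did not pass (adjusted p = 0.695 and 0.758).

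Among genes that fell, the methyltransferase Nnmt had a difference of -2.93 ± 0.41 (adjusted p = 1.83e-04). In the methionine cycle, Bhmt fell by 3.37 on casein and had -0.52 ± 0.18 on elemental amino acids (difference -2.86 ± 0.26, adjusted p = 8.25e-07). Dmgdh (-0.84 ± 0.11), Gnmt (-0.77 ± 0.16) and Gamt (-0.57 ± 0.12) differed as well. In the list of the methionine cycle and transsulfuration, 6 of the 39 members had a difference below 0. Complement and coagulation factors had 21 of 52 below 0, among them C9 (-1.82 ± 0.34), C4bp (-0.51 ± 0.09) and C1s1 (-0.53 ± 0.08), acute phase proteins 9 of 37 with Orm1 (-1.79 ± 0.30), and urea cycle and catabolic genes 7 of 57 with Oat (-1.21 ± 0.22), Ass1 (-0.87 ± 0.20) and Asl (-0.63 ± 0.15). Pigr (-1.39 ± 0.16), Cyp2f2 (-1.27 ± 0.18), Hsd3b5 (-3.42 ± 0.89), Dct (-3.35 ± 0.84), Ncam2 (-2.75 ± 0.40), Apoa4 (-2.48 ± 0.61) and Slc22a7 (-2.18 ± 0.39) fell on casein with a difference below 0, and so did Igf1 (-0.47 ± 0.12, adjusted p = 0.0356) and Ghr (-0.43 ± 0.11, adjusted p = 0.0425). On elemental amino acids Dct had -3.67 ± 0.38 (adjusted p = 2.39e-07). Cyp2f2 (-0.18 ± 0.13, adjusted p = 0.411) and Apoa4 (-1.03 ± 0.42, adjusted p = 0.108) did not pass there. For a few genes whose difference passed, the casein and elemental values had opposite signs. Slc35f2 rose on casein (1.62 ± 0.41) and had -1.48 ± 0.47 on elemental amino acids (adjusted p = 0.0382), and Sema5b rose on casein (0.90 ± 0.25) and had -1.49 ± 0.29 (adjusted p = 7.57e-04). The elemental value did not pass for Mogat1 (1.78 ± 0.38 on casein and -0.75 ± 0.48 on elemental amino acids, adjusted p = 0.344 for the second) or for Ptgds, a prostaglandin synthase (-2.49 ± 0.51 and 0.86 ± 0.34, adjusted p = 0.101 for the second). Cspg5, a proteoglycan, had 1.56 ± 0.46 on casein and -1.96 ± 0.47 on elemental amino acids, a difference of 3.52 ± 0.65 (adjusted p = 0.00278). Without C_MR_3412 its casein value was 0.98 (adjusted p = 0.123).

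**Figure D5:**
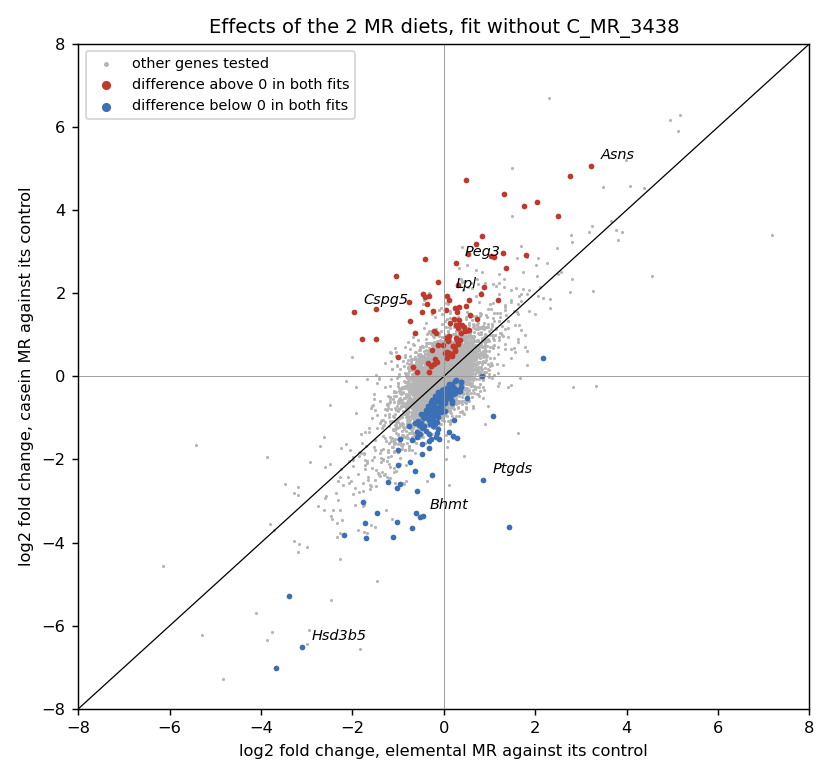
Each point is 1 gene, with the log2 fold change of elemental MR on the x axis and of casein MR on the y axis, both from the fit without C_MR_3438; the 93 and 179 genes whose difference was above or below 0 in both fits are coloured, and the diagonal marks equal effects. Bhmt lies at -0.52 and -3.37 and Peg3 at 0.26 and 2.73, away from the diagonal, while Asns lies high on both axes.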

How the data were processed

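Liver RNA was sequenced in 12 casein and 12 elemental libraries, grouped by their labels. The authors deposited a table of raw counts per gene and a table of the same genes as normalised signal, which equals the counts divided by 1 size factor per library (0.745 to 1.32); the second was used only for gene symbols and this check. Aligner, counter, genome build and strand use were not given in the sources used here. The deposited count table holds 15161 genes, of which the rarest has 72 reads in all; 13002 symbols were taken from the deposited table, 2119 from the reference by identifier, and 40 genes have none.

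Counts were scaled with TMM, genes with low counts were removed (filterByExpr, 99.9% of reads kept), and the groups were compared with edgeR's quasi-likelihood test (edgeR 4.0.16, R 4.3.3) with Benjamini-Hochberg adjustment over all genes tested, once with 24 libraries and once without C_MR_3438. All groups entered the fit and shared 1 estimate of spread. Library measures were compared with exact permutation tests, adjusted over 5 measures. On simulated counts of 13277 genes with changed genes of known size, both fits called 70.1% of 1.5-fold, 82.1% of 2-fold and 100% of 4-fold changes, and 8 of 176 genes called had not been changed. The simulation changed few genes, in casein MR alone, whereas 2763 changed in the data. It added no muscle RNA to C_MR_3438 and no shift in library make-up. Its rates are therefore not those of the real calls.

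The members, the 53 gene lists and the rule for named genes were chosen with earlier results of these data known, so list counts are descriptions, with no test of a list. The rule named the 12 largest rises and falls among genes averaging at least 1 log2 CPM, the 6 largest gains and losses in CPM, the 4 smallest p-values of each list, the 6 strongest genes called in 1 fit only, the 8 largest differences from elemental MR in each direction, the 8 most variable genes of casein MR, and a set of genes known from MR; other list members are examples chosen after their values were seen. A few genes that the rule names are not reported here. Alternatives were other scalings, filters, tests (DESeq2 1.42.0, limma 3.58.1), a surrogate variable (sva 3.50.0), thresholds, the casein libraries alone and leaving out each casein library. Promoters are RefSeq windows of GRCm38.p6 matched by symbol. A planned check of the methionine share of the proteins was not run, since no protein table was used here.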

Additional observations from a re-analysis of the deposited data

Results flagged for a closer look

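Among 612 groups of 6 casein libraries (306 named genes in each diet), 43 had 1 library set apart, its gap to the next library taking more of the group's range than Dixon's critical value allows, where chance sets apart about 1 group in 20. By library these were 10 in C_MR_3438, 9 in C_MR_3412, 6 in C_C_3407, 4 in C_C_3437, 4 in C_C_3413, 2 in C_MR_3425, 2 in C_MR_3431, 2 in C_C_3421, 2 in C_MR_3433, 1 in C_MR_3419 and 1 in C_C_3436. In CPM, C_MR_3438 lay above the other libraries of its diet for Neb (137), Tpm2 (213), Mgp (11.7), Cox6a2 (112), Tpm1 (219), Lrtm1 (7.10), B2m (3992) and Snrpn (12.8) and below them for Slc7a7 (5.69) and Igf1 (651). In CPM, C_MR_3412 lay above the other libraries of its diet for Fasn (216), Pex11a (801) and Slc7a5 (4.19) and below them for Il1rn (10.6), Pck1 (526), Khk (156), Aldh1l1 (118), Lepr (4.74) and Fbp1 (426). In CPM, C_C_3407 lay above the other libraries of its diet for Ifi44 (21.5) and Srxn1 (69.9) and below them for Sod1 (2349), C3 (1691), Ghr (400.4) and Mup3 (5548). In CPM, C_C_3437 lay above the other libraries of its diet for Hsd17b11 (344) and below them for Psat1 (0), Apoa1 (8215) and Scap (109). In CPM, C_C_3413 lay above the other libraries of its diet for Slc38a3 (681), Acta1 (9.63) and Lars2 (13.4) and below them for Ephx1 (109). In CPM, C_MR_3425 lay above the other libraries of its diet for Shmt1 (132) and Ech1 (438). In CPM, C_MR_3431 lay below the other libraries of its diet for Tpmt (7.13) and Psma7 (285). In CPM, C_C_3421 lay below the other libraries of its diet for Zbp1 (3.93) and Gars (37.2). In CPM, C_MR_3433 lay above the other libraries of its diet for Cpt1a (226) and P4hb (516). In CPM, C_MR_3419 lay above the other libraries of its diet for Sox9 (28.6). In CPM, C_C_3436 lay below the other libraries of its diet for Ndufa13 (224). The summed CPM of skeletal muscle markers with Car3 was set apart in C_MR_3438 (7284) and that of Kupffer cell and macrophage markers in C_MR_3431 (1452).

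The effect of MR differed between casein and elemental amino acids, by the test of the difference in both fits, for 86 of the named genes. The values are differences of log2 fold changes, casein minus elemental, from the fit without C_MR_3438. Among genes of fatty acid oxidation, the cytochromes P450 4A, thioesterases and lipid handling they were Ehhadh (2.47), Cyp4a31 (2.34), Cyp4a14 (2.16), Cyp4a10 (1.87), Acot1 (1.78), Acot2 (1.69), Acaa1b (0.67), Eci2 (0.66), Ech1 (0.47), Acadm (0.59), Acadl (0.36), Acadvl (0.31), Ucp2 (1.35), Pex11g (-0.42), Mogat1 (2.53), Lpl (1.88), Hsd17b11 (1.15), Retsat (1.28), Cideb (-0.36) and Scap (-0.39). Among ATF4 targets, amino acid, methionine and methyl group genes they were Asns (1.84), Vldlr (1.37), Tcf24 (2.08), Bhmt (-2.86), Nnmt (-2.93), Dmgdh (-0.84), Gnmt (-0.77), Gamt (-0.57), Tpmt (-0.86), Aldh1l1 (-0.66), Slc38a3 (-0.54), Prodh (-0.89), Oat (-1.21), Ass1 (-0.87), Asl (-0.63) and Agxt2 (-0.62). Among NRF2, chaperone, heme, proteasome and respiratory genes they were Cbr1 (1.25), Gstm4 (0.65), Hspb1 (1.16), Blvrb (0.67), Psme1 (0.35), Ppib (-0.48) and Ndufa13 (-0.31). Among plasma protein, complement and lipoprotein genes they were Alb (-0.36), Trf (-0.44), Apoa4 (-2.48), Apoc3 (-0.62), Apoh (-0.33), Orm1 (-1.79), Serpina1b (-0.65), Serpina1d (-0.76), C4a (-1.25), C4bp (-0.51), C9 (-1.82), C1s1 (-0.53), Cpb2 (-0.50), F2 (-0.42) and Cfd (-5.04). Among sex-biased and growth hormone axis genes they were Hsd3b5 (-3.42), Dct (-3.35), Ncam2 (-2.75), Serpina12 (-1.90), Igf1 (-0.47) and Ghr (-0.43). Among genes of zonation, transport, drug and bile acid metabolism they were Pigr (-1.39), Cyp2f2 (-1.27), Aldh1b1 (-1.44), Gulo (-0.88), Lect2 (-0.79), Cyp4f14 (-0.76), Cyp2j6 (-0.48), Cyp2c70 (-1.42), Sult1b1 (-1.14), Nat8 (-2.10), Slc22a7 (-2.18), Slc10a1 (-0.49), Slc10a2 (-1.65), Slco2b1 (-0.48) and Car3 (-0.94). For genes of none of these groups they were Peg3 (2.47), Krt23 (2.55), Ptgds (-3.35), Adgrg2 (2.38), Cspg5 (3.52), Slc35f2 (3.11) and Sema5b (2.39).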

How the results depend on the processing

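The number of genes called kept within 1.5 times of the values above under the scalings, filters, tests, surrogate variable and sample choices tried. DESeq2's Wald test called 3242 genes with all libraries, 3076 without C_MR_3438, 2919 in both and 387 differences from elemental MR, and the 12 casein libraries alone gave 2733, 2487 and 2376 for the casein counts. Casein libraries other than C_MR_3438 were left out 1 at a time. This gave 2851 to 3095 genes with all others, 2505 to 2867 without C_MR_3438, 2415 to 2737 in both fits and 202 to 342 differences. Leaving out C_MR_3438 itself makes the fits the same, with 2894 genes called. At an adjusted p under 0.01, 1905 genes were called without C_MR_3438, 1834 in both fits and 106 as differences. With a change of at least 2-fold also required, 674 were called with all libraries, 644 without C_MR_3438, 598 in both and 89 as differences, and of these differences 48 were above 0 (53.9%, against 34.2% of the 272). Single genes were followed only in the fit without C_MR_3438. There, of the 263 named genes that changed, 10 lost the call in at least 1 of 21 alternatives and 0 changed sign. The alternative that leaves out C_MR_3438 repeats that fit. Calls in both fits were not followed gene by gene, and more can be lost: the 3 muscle markers that rose fell to 0 by DESeq2's Wald test. Acta1, not called without C_MR_3438, went from 0.51 to -1.14 without C_MR_3425 and to 1.05 without C_C_3413. The summed skeletal muscle markers were lower in MR with Car3 and higher without it, by 631 CPM with all libraries (exact permutation p = 0.165) and by 26.0 CPM without C_MR_3438 (exact permutation p = 0.329); Car3 makes up most of the first sum. The median log2 fold change of all genes stayed within 0.02 of 0 under the scalings. Each of these scalings takes most genes as unchanged, so this value cannot show a shift shared by most genes. Small fold changes rest on that assumption, and scaling by total reads alone was not tried. No paired analysis was possible because each library carries a number of its own, which no other group shares. Depth limits genes of a few reads per library, such as Dct in MR and Phgdh in control, whose fold changes are imprecise. The cause of the other changes between settings was not tested.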
